A study of Mus musculus with 3 samples.

Results

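The ephrin, netrin and slit guidance genes are 39 genes that encode the ligands and receptors of the Eph, netrin and Slit-Robo families. Members were found by gene name in the array annotation, with older symbols updated to current ones; the rule uses no measured value, though it was written with earlier results of these data known. All 39 had a value on all 3 arrays, out of 19855 named genes so measured, and 68 probes stood for them. The tested mice carried a conditional knockout (cKO) of Smarca5, and the wild-type mice of the same C57Bl/6 strain served as controls. Smarca5 encodes an ATPase of the ISWI chromatin remodelers, which move and space nucleosomes. RNA came from cerebella dissected at postnatal day 10, when granule neurons are still being born and are migrating inward. The sources used here do not give the driver of Cre recombinase, the sexes or any pooling of animals. Each array held 1 cKO and 1 wild-type sample, so an array gave 1 ratio per gene, and nothing states that the 3 samples came from separate animals. The p-values therefore measure the spread between arrays, which may be technical.

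Each value below is the log2 of cKO RNA over wild-type RNA, and errors are SDs of the 3 array values (n = 3). A value above 0 means more RNA in the cKO. Dyes were exchanged on replicate 3. The log base is not stated, so each fold change holds only if the base is 2, and the ratios were given their direction by the labelled channels and by Smarca5 itself. Smarca5 had -0.86 ± 0.11 (1.81-fold lower), which is no independent check of that direction. The arrays gave ratios and no intensities, so the level of a gene and its distance from background are unknown, and no gene's level can be set against another's. The number of arrays limits the precision.

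Growing axons and migrating neurons read these molecules at contact or along gradients. Ephrins are held on the cell surface, by a lipid anchor in the A class and by a transmembrane segment in the B class, and they signal through Eph receptor tyrosine kinases and back into their own cell. Netrins attract through Dcc and Neo1 and repel where Unc5 receptors take part, whereas Slits repel cells that carry Robo receptors such as Robo1. In the hindbrain these systems steer commissural axons, and they guide neurons that leave the rhombic lip, the source of cerebellar granule cells and of precerebellar neurons.

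The guidance genes did not shift together but spread to both sides of 0. Slit2, Slit1, Epha10, Unc5d and Epha4 lay highest in the cKO, and Ntn4, Epha3, Ephb2 and Unc5b lay lowest. No member passed an adjusted p of 0.05 in limma's moderated test (Benjamini-Hochberg over all 28196 features), and 0.0% of all features did. The lowest adjusted p of a member was 0.0841 in limma, which was also the lowest of the whole table. The adjustment gave that same value to features of unlike unadjusted p, so it is no top rank. Slit2 (unadjusted p = 0.000215 in limma) and Unc5d (unadjusted p = 0.0016 in limma) share it with other genes such as Gabrd, Draxin and Tiam1. At an unadjusted p under 0.05 in limma, 13 of the 39 genes were higher in the cKO (33.3%), against 10.9% of all features and 12.3% of named genes. A further 7 were lower (17.9%), against 9.98% of all features and 9.88% of named genes. The count of lower genes was 3 without replicate 1 and 4 without replicate 2, where 5.93% and 6.77% of all features were lower. On all 3 arrays, 13 members were above 0, against 22.1% of all features and 24.9% of named genes, and 9 were below 0, against 21.4% of all features and 22.1% of named genes. The median of the members was 0.09, beside 0.003 for all features, while the median size of their means without regard to sign was 0.49, beside 0.24. These are descriptions of the list and were not tested as such. Members called higher or lower below are those past the unadjusted threshold, and the word carries no adjusted call.

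**Figure D1:**
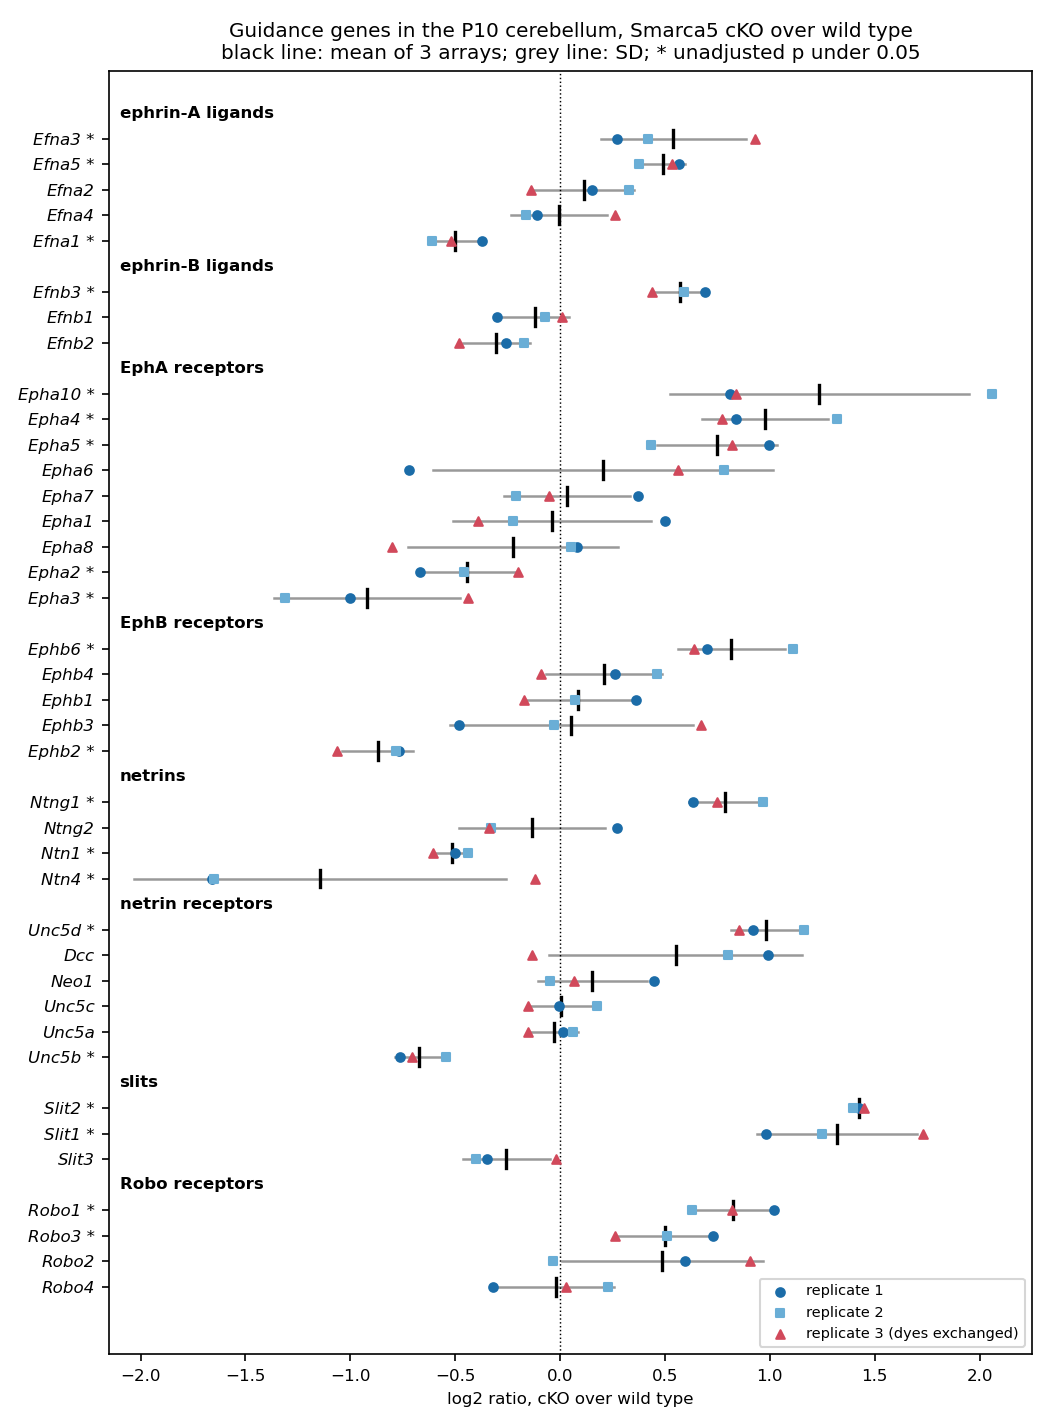
Log2 ratio of cKO over wild type (x axis) for the 39 guidance genes, grouped by role, with 1 point per array, a black line at the mean and a grey line for the SD. Slit2 shows the tightest points, from 1.40 to 1.45, while Ntn4 has a pair of arrays near -1.66 and replicate 3 at -0.12.

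The bases in front of members that differed in the same direction are shown to set the groups beside each other in sequence. RefSeq windows of the 250 bases before a gene's start (build GRCm38.p6) were used for 34 members. The 2 higher and 2 lower members of smallest p whose window lies outside the annotated gene are printed 5′ to 3′ on the gene's strand, with capitals marking a motif match. They are the ephrin genes Efna5 and Efna3 (higher) and the receptor genes Unc5b and Epha3 (lower), at chr17:62881318-62881567, chr3:89322940-89323189, chr10:60831582-60831831 and chr16:63864176-63864425, all on the minus strand. Slit1, Unc5d, Dcc, Ntn1 and Efnb3 had no window, and Slit2 and Ephb2 were not among those printed. The printed genes therefore do not stand for the members of smallest p, and Efna3 had the largest p of the higher members (unadjusted p = 0.039 in limma).
Efna5: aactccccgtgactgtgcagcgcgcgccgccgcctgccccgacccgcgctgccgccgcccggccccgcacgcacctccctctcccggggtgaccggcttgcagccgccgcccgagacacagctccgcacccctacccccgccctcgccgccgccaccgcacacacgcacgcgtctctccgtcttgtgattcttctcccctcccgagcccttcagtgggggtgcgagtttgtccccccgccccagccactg
Efna3: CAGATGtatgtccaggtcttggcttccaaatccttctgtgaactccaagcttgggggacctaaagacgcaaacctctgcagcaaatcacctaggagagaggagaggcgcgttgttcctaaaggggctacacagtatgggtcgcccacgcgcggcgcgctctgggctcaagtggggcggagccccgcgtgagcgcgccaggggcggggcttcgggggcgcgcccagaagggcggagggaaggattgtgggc
Unc5b: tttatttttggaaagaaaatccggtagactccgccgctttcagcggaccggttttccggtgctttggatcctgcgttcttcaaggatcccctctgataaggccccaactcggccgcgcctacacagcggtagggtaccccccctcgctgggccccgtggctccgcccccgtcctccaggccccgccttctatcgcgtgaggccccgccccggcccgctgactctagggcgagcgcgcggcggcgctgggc
Epha3: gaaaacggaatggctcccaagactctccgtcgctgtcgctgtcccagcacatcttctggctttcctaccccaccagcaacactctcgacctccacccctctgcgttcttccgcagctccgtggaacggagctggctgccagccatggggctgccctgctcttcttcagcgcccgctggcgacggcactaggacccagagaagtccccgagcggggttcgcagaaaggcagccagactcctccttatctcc
Both strands were searched for the E-boxes CAGCTG and CAGATG, read by bHLH factors such as Atoh1 and Neurod1 of the granule lineage and for the motif GACCACCCA of the GLI factors. The motifs do not overlap in these windows, and the only match among the 4 is CAGATG at the first base of the Efna3 window. CAGCTG stood before 1 of the 10 higher members with a window (Epha10), before 0 of the 6 lower ones and before 4 of the 18 others, while 13% of all 32851 windows hold it. CAGATG stood before 1 higher member, 0 lower ones and 3 others, and 14.4% of all windows hold it. The GLI motif, found in 0.225% of all windows, stood before none of these members. Members were counted once per gene over their 39 windows, and the background once per window, so these shares differ in unit. The windows were rich in G and C in every group, with a median of 63.6% for higher members, 64.8% for lower ones and 65.6% for the others, against 52.4% over all windows. The G and C shares of single windows overlapped between the groups, from 56% to 76.8% in higher members and from 55.6% to 73.2% in lower ones.

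Among the slits, Slit1 and Slit2 were higher in the cKO and Slit3 was not past the threshold. Slit2, a secreted repellent of axons and migrating neurons, had 1.42, 1.40 and 1.45 on replicates 1, 2 and 3. Its mean was 1.42 ± 0.03, which is 2.68-fold higher (95% interval 1.11 to 1.74; adjusted p = 0.0841 in limma). Its 2 probes were both high on every array, with means of 1.13 ± 0.22 and 1.72 ± 0.19. Slit1, a neuronal Slit, had 0.98, 1.25 and 1.73, a mean of 1.32 ± 0.38 or 2.50-fold higher (adjusted p = 0.0907 in limma). Slit3 had -0.26 ± 0.21, with a 95% interval from -0.65 to 0.13, and lay below both of the others on every array.

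The genes of the Robo receptors, not all of which are main receptors of Slits, followed with smaller values. Robo1, a main Slit receptor of axons, had 1.02, 0.63 and 0.82, a mean of 0.82 ± 0.20 or 1.77-fold higher (adjusted p = 0.1 in limma). Robo3, the receptor that hindbrain commissural axons need to cross the midline, had 0.73, 0.51 and 0.26, with a mean of 0.50 ± 0.24, lowest on the array with exchanged dyes. Robo2 had 0.49 ± 0.48 and was not past the threshold, since replicate 2 stood at -0.03 against 0.59 on replicate 1 and 0.91 on replicate 3. The Robo2 probes differed, at 0.09 ± 0.34 and 0.89 ± 0.75. Robo4, the Robo of endothelium, had -0.02 ± 0.28. At an unadjusted p under 0.05, 4 of the 7 Slit and Robo genes were higher and 0 lower, beside 10.9% and 9.98% of all features.

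The netrins went both ways. Ntn1, the diffusible netrin that attracts axons through Dcc, was lower in the cKO with -0.50, -0.44 and -0.60, a mean of -0.52 ± 0.08 or 1.43-fold lower (adjusted p = 0.135 in limma). Both Ntn1 probes were below 0 on every array, at -0.66 ± 0.26 and -0.37 ± 0.09. Ntn4, a netrin of basement membranes with a single probe, had -1.66, -1.65 and -0.12. Its mean of -1.14 ± 0.89 was the lowest of the members, but the value came from replicates 1 and 2, which share a dye orientation (adjusted p = 0.213 in limma). Without replicate 3 its mean was -1.65, and without replicate 1 it was -0.88.

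Ntng1, which encodes the lipid-anchored netrin-G1, was higher with 0.64, 0.97 and 0.75, a mean of 0.78 ± 0.17 or 1.72-fold (adjusted p = 0.1 in limma). It was the member with most probes, and the means of all 5 were above 0, from 0.28 ± 0.41 to 1.14 ± 0.50. Its postsynaptic partner Lrrc4c, also called NGL-1, was higher too at 0.73 ± 0.37, with 0.71, 1.11 and 0.37. The paralogous pair did not follow: Ntng2 had -0.13 ± 0.35 and its partner Lrrc4 had -0.32 ± 0.22, both short of the threshold.

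Of the netrin receptors, Unc5d was higher and Unc5b lower. Unc5d, a repulsive netrin receptor that also binds Flrt2, had 0.92, 1.17 and 0.85, a mean of 0.98 ± 0.16 or 1.97-fold (95% interval 0.62 to 1.34; adjusted p = 0.0841 in limma). Its probe under the current symbol averaged 0.75 ± 0.16 and the one under a clone name 1.21 ± 0.25, both above 0 on every array. With the current symbol only, the Unc5d mean was 0.75 (adjusted p = 0.103 in limma). Unc5b, better known from the tips of growing vessels, had -0.77, -0.55 and -0.71, a mean of -0.67 ± 0.11 or 1.59-fold lower (adjusted p = 0.107 in limma). The Unc5b probes differed, at -0.90 ± 0.20 and -0.45 ± 0.41, and the second stood at 0.03 on replicate 2. The arrays of the 2 genes lie on opposite sides of 0, which follows from picking members with the same sign on every array.

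Dcc and Unc5c are given here because of what their probes show, and were picked after their values were seen. Dcc, the attractive receptor, had 0.99, 0.80 and -0.14, a mean of 0.55 ± 0.60, and so turned sign on the array with exchanged dyes. The probe listed as Dcc averaged 0 ± 0.71, and the one listed under a clone name that maps to Dcc averaged 1.10 ± 0.51 and was above 0 on every array. Unc5c, whose loss in mice misplaces granule cells beyond the rostral border of the cerebellum, had a gene mean of 0.01 ± 0.17. Its probes included 1 at -0.69 ± 0.02, with -0.67, -0.71 and -0.69, beside probes at 0.33 ± 0.87 and 0.38 ± 0.37. Which transcripts the Unc5c probes measure is not known here, since the probe sequences were not used. Unc5a had -0.03 ± 0.11 (95% interval -0.37 to 0.31) and Neo1 0.15 ± 0.26, neither past the threshold.

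**Figure D2:**
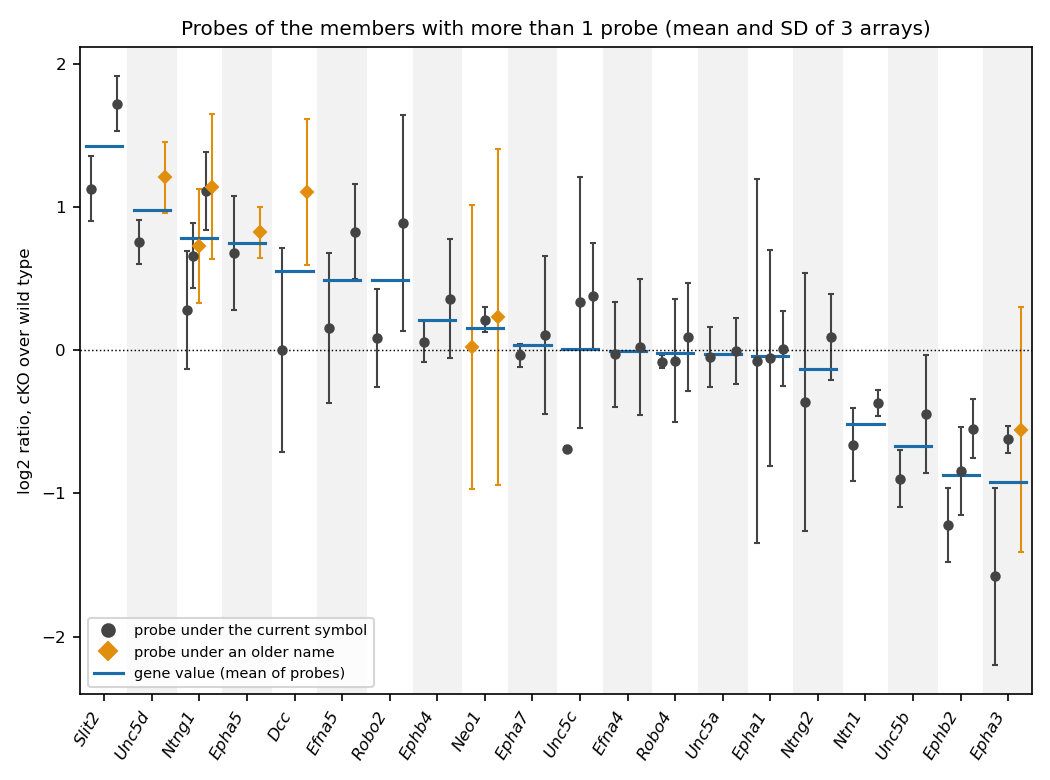
Mean log2 ratio and SD over 3 arrays for each probe of the 20 members with more than 1 probe; round points are probes under the current symbol, diamonds are probes under an older name, and the blue line is the gene's value. The probe means of Slit2, Unc5d, Ntng1, Ephb2 and Epha3 stay on the same side of 0, while Unc5c has 1 probe at -0.69 and 2 above 0. Single arrays need not: an Ntng1 probe was at -0.06 on replicate 2 and an Epha3 probe at 0.42 on replicate 3.

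In the ephrin-A class, Efna5 and Efna3 were higher and Efna1 lower. Efna5, a repellent cue of topographic maps in the brain, had 0.56, 0.38 and 0.54, a mean of 0.49 ± 0.10 or 1.41-fold (adjusted p = 0.146 in limma). Only 1 of its 2 probes was above 0 on every array, at 0.83 ± 0.33, while the other had 0.16 ± 0.52. Efna3 had 0.27, 0.42 and 0.93, a mean of 0.54 ± 0.35, highest on the array with exchanged dyes. Its mean was 0.34 without that array, and with any 1 array left out it was not past the unadjusted threshold. Efna1, an ephrin of vessels and many epithelia, had -0.37, -0.61 and -0.52, a mean of -0.50 ± 0.12 or 1.41-fold lower. Efna2 and Efna4 had 0.11 ± 0.24 and -0.0033 ± 0.23, and each changed sign between arrays.

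In the ephrin-B class, Efnb3, the midline ephrin that keeps corticospinal axons from recrossing, was higher with 0.69, 0.59 and 0.44. Its mean was 0.57 ± 0.13 or 1.49-fold (adjusted p = 0.126 in limma). Efnb2, which marks arterial endothelium and is also neural, was below 0 on all 3 arrays with -0.26, -0.17 and -0.48, but its mean of -0.30 ± 0.16 was not past the threshold (95% interval -0.66 to 0.06). Efnb1 had -0.12 ± 0.16.

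The EphA receptors held the widest range of any group, from -0.92 to 1.24. Epha4, which binds ephrins of both classes, had 0.84, 1.32 and 0.77, a mean of 0.98 ± 0.30 or 1.97-fold higher (adjusted p = 0.101 in limma). Epha5, a receptor of ephrin-A5, had 0.99, 0.43 and 0.82, a mean of 0.75 ± 0.29, and both of its probes averaged above 0. Epha10, an Eph receptor that lacks kinase activity, had 0.81, 2.06 and 0.84, with replicate 2 far above the others. Its mean was 1.24 ± 0.71, and 0.82 without replicate 2. The single Epha10 probe is listed under a clone name on the array.

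Epha3 and Epha2 were lower. Epha3, a receptor of ephrin-A5 and ephrin-A2, had -1.003, -1.31 and -0.44, a mean of -0.92 ± 0.44 or 1.89-fold lower (adjusted p = 0.135 in limma). Its 2 probes under the current symbol were below 0 on every array, at -1.58 ± 0.62 and -0.62 ± 0.10. A further probe, listed under the older name End3, had -0.92, -1.17 and 0.42. Epha2, mostly an epithelial receptor, had -0.67, -0.46 and -0.20, a mean of -0.44 ± 0.24. The 4 other EphA receptors were not past the threshold. Epha7 and Epha1 averaged close to 0 at 0.04 ± 0.30 and -0.04 ± 0.47. Epha6 was at -0.72 on replicate 1 against 0.78 and 0.56 on the others, and Epha8 was at -0.80 on replicate 3 against 0.08 and 0.05.

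Among EphB receptors, Ephb2 and Ephb6 stood at opposite ends. Ephb2, a receptor that also organises excitatory synapses, had -0.77, -0.78 and -1.06, a mean of -0.87 ± 0.17 or 1.83-fold lower (95% interval -1.24 to -0.50; adjusted p = 0.0932 in limma). Each of its 3 probes was below 0 on all 3 arrays, from -1.22 ± 0.26 to -0.55 ± 0.21. Ephb6, which has no active kinase, had 0.70, 1.11 and 0.64, a mean of 0.82 ± 0.26 or 1.76-fold higher (adjusted p = 0.109 in limma). Ephb1, Ephb3 and Ephb4 had 0.09 ± 0.27, 0.05 ± 0.58 and 0.21 ± 0.28, and all 3 turned sign on the array with exchanged dyes.

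Split by part played, 6 of 15 ligands were higher (40%) and 3 lower (20%), and 7 of 24 receptors were higher (29.2%) and 4 lower (16.7%), beside 10.9% and 9.98% of all features. Across the 39 members Pearson's r was 0.8 for the arrays of replicates 1 and 2, which share a dye orientation, against 0.419 over all features. With replicate 3 it was 0.634 for replicate 1 and 0.721 for replicate 2, against 0.251 and 0.213 over all features. These are correlations across genes, which share arrays and are not replicates. The sets are also unlike: the median size of a mean was 0.49 for members and 0.24 for all features, which include single unnamed probes. A larger spread of means by itself raises r, so the gap does not show that guidance genes were measured better. On 9 members (23.1%) replicate 3 had the opposite sign to both others, against 21.4% of all features. None of these 9 was past the threshold, and Dcc was the farthest from 0 among them. Genes picked for a turn of sign have a wide spread and can hardly pass, so their absence says nothing of a dye effect on the called members. Of the 20 members with more than 1 probe, 13 had probe means all on the same side of 0 (65%), against 57.8% of all named genes with more than 1 probe.

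**Figure D3:**
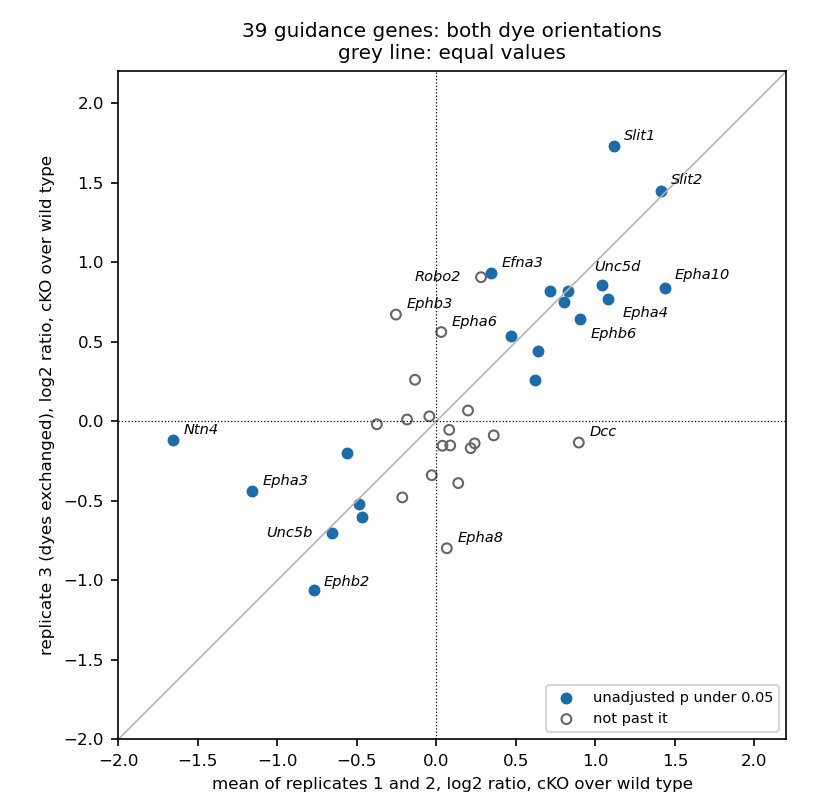
Mean log2 ratio of replicates 1 and 2 (x axis) against the ratio on replicate 3, where the dyes were exchanged (y axis), for 39 guidance genes; filled points have an unadjusted p under 0.05. Slit2 and Unc5b lie close to the line of equal values, Slit1 lies above it, Ntn4 reads -0.12 on replicate 3, and Dcc and Epha8 fall below 0 there.

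Other genes of these pathways spread to both sides as well. Of 15 further ligands and coreceptors measured, 4 were higher and 1 lower at an unadjusted p under 0.05, with a median of 0.12. Of all features, 10.9% were higher and 9.98% lower. Draxin, a secreted repellent that binds Dcc, was the lower one with -1.79, -1.12 and -1.29, a mean of -1.40 ± 0.35 or 2.64-fold lower (adjusted p = 0.0841 in limma). The higher ones were Lrrc4c, the Neo1 ligands Rgma (0.66 ± 0.10) and Rgmb (0.56 ± 0.05), and Dscam (0.70 ± 0.11), a further netrin receptor. Flrt2, a ligand of Unc5d, had 0.43 ± 0.38 and was not past the threshold.

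Of 19 measured genes that act below Eph receptors and ephrins, 4 were higher and 6 lower, with a median of -0.06. The shares over all features were 10.9% and 9.98%. Ngef, or ephexin, which binds EphA receptors, had 0.84, 0.95 and 1.06, a mean of 0.95 ± 0.11. Chn1, the Rac inhibitor that acts below Epha4, had 0.90, 0.78 and 0.76, a mean of 0.81 ± 0.08. Ptpro, a phosphatase of Eph receptors, had 0.89 ± 0.24, and Grip1, an adaptor that binds ephrin-B tails, had 0.63 ± 0.02.

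On the lower side, Tiam1, a Rac exchange factor recruited by Ephb2, had -1.48, -1.20 and -1.40, a mean of -1.36 ± 0.14 or 2.57-fold lower (adjusted p = 0.0841 in limma). Itsn1, a Cdc42 exchange factor that works with Ephb2, ran from -2.17 on replicate 1 to -0.62 on replicate 3, with a mean of -1.27 ± 0.81. Adam10, the protease that sheds ephrins, had -0.69 ± 0.24 and the adaptor Nck2 had -0.54 ± 0.34. Arhgef15 and Anks1 were lower at -0.37 ± 0.10 and -0.33 ± 0.10.

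Of 19 measured genes that act below netrin and Slit receptors, 5 were higher and 3 lower, with a median of 0.09. Over all features the shares were 10.9% and 9.98%. The lower ones were the actin-binding Ablim1 (-0.88 ± 0.20), Nck1 (-0.51 ± 0.28) and Srgap2 (-0.37 ± 0.07). The higher ones were Dock1 (0.65 ± 0.12), a Rac exchange factor below Dcc, Srgap1 (0.58 ± 0.27), a Robo-bound inhibitor of Cdc42, the kinase Fyn (0.45 ± 0.24), the actin regulator Enah (0.45 ± 0.02) and the focal adhesion kinase Ptk2 (0.35 ± 0.08). The GTPases themselves were not past the threshold, with Rac1 at 0.12 ± 0.06 and Cdc42 at 0.03 ± 0.05.

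**Figure D4:**
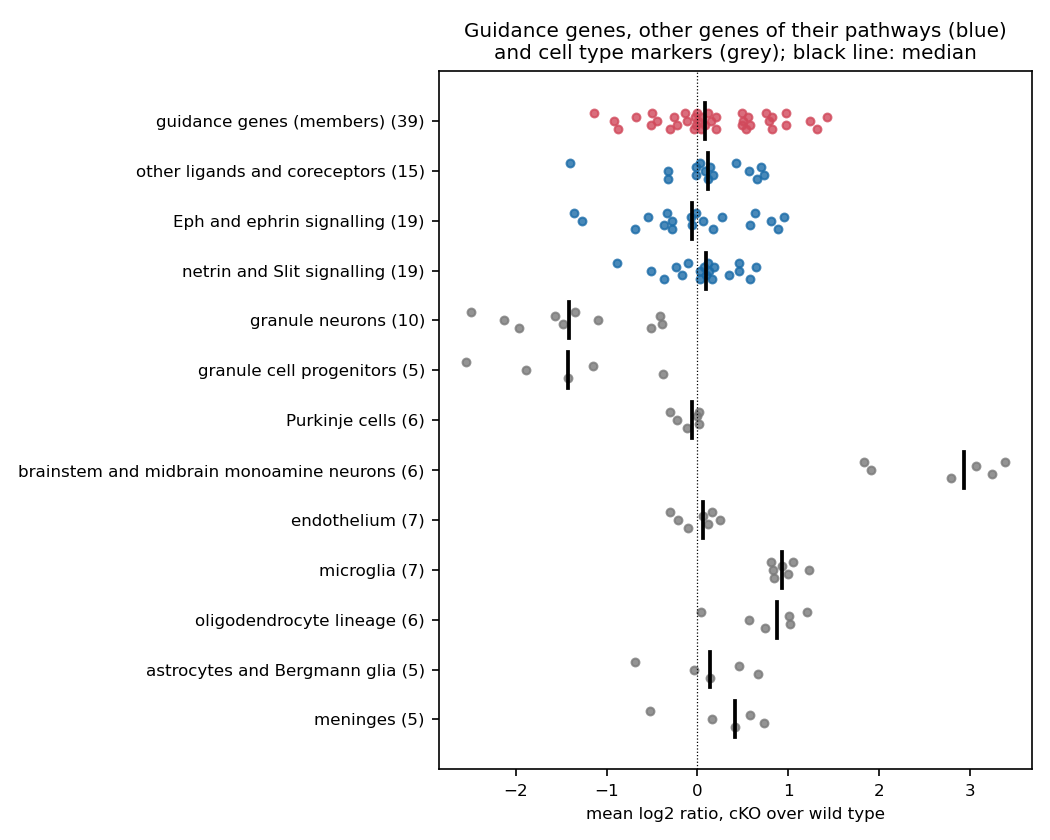
Mean log2 ratio of cKO over wild type for each gene (points) of the guidance genes, of 3 lists of pathway genes and of 9 lists of cell type markers, with a black line at the median. Guidance and pathway genes lie on both sides of 0, with medians from -0.06 to 0.12, whereas granule neuron markers have a median of -1.41 and monoamine neuron markers one of 2.93.

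Cell type markers differed on the same arrays. Of 10 granule neuron markers, 9 were lower at an unadjusted p under 0.05 in limma, with list means of -1.59, -1.47 and -0.96 on replicates 1, 2 and 3, and so were 5 of 5 markers of granule cell progenitors, with list means from -1.70 to -1.34. All 6 markers of brainstem and midbrain monoamine neurons were higher, with list means from 2.40 to 2.90, as were 7 of 7 microglial markers (0.94 to 0.98) and 5 of 6 of the oligodendrocyte lineage (0.71 to 0.82). In bulk tissue, a change in the number of cells of a type and a change in RNA per cell cannot be told apart. Whether the dissected pieces held equal shares of adjoining brainstem in both genotypes, which bears on the monoamine neuron markers, was not tested. The part of these shifts in the values of the guidance genes was not tested either. Of the markers of Purkinje cells, 0 of 6 were past the threshold, and of those of endothelium 0 of 7. Of all features, 10.9% were higher and 9.98% lower. Of the members described above by vessels or endothelium, Unc5b (-0.67) and Efna1 (-0.50) were lower, while Efnb2 (-0.30) and Robo4 (-0.02) were not past the threshold.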

How the data were processed

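The 3 arrays had 2 colours, with cKO in channel 2; RNA was extracted with Trizol and labelled through dendrimers, per the labels' protocols. The table that the authors deposited gives, for each of 38880 probes, a centred log ratio on every array, taken here as log2. How they corrected background and normalized is not given in the sources used here. Symbols came from an old platform annotation and were updated through RefSeq names: 19043 probes matched a current symbol and 11114 a synonym of 1 gene, and 300 kept the array's symbol. Of the member probes, 59 carried the current symbol and 9 a synonym.

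A set of 47 unnamed spots that follow the dye was left out (means of -7.86, -7.93 and 7.71 on replicates 1, 2 and 3). Probes of a gene were averaged per array, and 28196 features were tested against 0 with limma 3.58.1 in R 4.3.3 (lmFit, eBayes, 2 residual and 2.08 prior degrees of freedom). A run on simulated data with independent noise required only that known shifts be recovered, so it lends no support to the p-values. Python 3.11.15 and pandas 2.3.3 did the rest.

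The members, the lists and the tests were chosen with earlier results of these data known. Array values are given for each member with an unadjusted p under 0.05 and the same sign on all 3 arrays, and for the 2 members of smallest p in a group with fewer, which made 21 members; those printed for Dcc, Unc5c, Robo2, Epha6 and Epha8 were picked after the values were seen. Of the pathway lists, Ntn5, Git1, Pak1 and Srgap3 had no value; counts of markers are over the genes with a value. Markers of astrocytes and Bergmann glia (2 higher and 1 lower of 5) and of meninges (3 higher of 5) were also counted. Alternatives were the scaling and centring of arrays, a dye term, no moderation, other rules for probes and symbols, the dye spots kept, and each replicate left out.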

Additional observations from a re-analysis of the deposited data

How the results depend on the processing

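Over 12 alternatives, 1 of them (probes under the current symbol only) chosen after the data were seen, no value of the 21 members given by array changed sign. All 21 had the same sign on every array, so leaving out or rescaling an array, or dropping moderation, could not turn a mean. Only the centring, the dye term and the rules for probes and symbols could have done so. Of the 21 members, 9 had an unadjusted p under 0.05 in limma under every setting: Epha4, Ephb2, Ephb6, Ntng1, Robo1, Slit1, Slit2, Unc5b and Unc5d. No member passed an adjusted p of 0.05 under any setting; of all features, 2 passed without moderation, Cerk at -0.06 and an unnamed probe at 0.1, each with equal values on all 3 arrays. The count of lower members was 7, but 4 without moderation and 3 to 6 with a replicate left out (3 without replicate 1, 4 without replicate 2). Higher members numbered 13, with 10 without moderation (Efna3, Epha10 and Robo3 fell short) and 9 to 12 with a replicate left out. Over all features the higher share fell to 8.37% without moderation and to 6.72% without replicate 1, against 10.9%, and the lower share to 7.83% and 5.93%, against 9.98%. The members past the threshold on all arrays that fell short were Efna3, Efna5, Efnb3, Epha2, Epha3, Epha5, Ntn1, Ntn4 and Robo3 without replicate 1, Efna1, Efna3, Epha2, Ntn4 and Robo3 without replicate 2, and Efna1, Efna3 and Efna5 without replicate 3. Epha10 has no value when symbols stay as on the array. With each probe alone, Dcc and Unc5c also passed the unadjusted threshold, Unc5c through its lower probe. With a replicate left out, the test has 1 residual degree of freedom, and the lowest adjusted p of a member in limma ranged from 0.239 to 0.379. Each array pairs a cKO with a wild-type sample and gives 1 ratio, so the test of these ratios against 0 is itself the paired comparison. Signal over background is unknown, so what dim probes limit was not tested.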
